A study of Homo sapiens with 2 samples.

Results

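The 8 genes described here make and colour the melanosome: TYR, TYRP1, DCT, PMEL, MLANA, OCA2, SLC45A2 and SLC24A5. They were chosen by name for their part in melanin synthesis, and all 8 were found among the 19970 protein-coding genes that GENCODE 44 places on chromosomes 1 to 22 and X of hg38. The nucleosome map comes from MNase-seq, in which micrococcal nuclease removes the DNA between nucleosomes and the protected fragments are sequenced. Both samples, batches 1 and 2, are ARPE-19, an established epithelial cell line from human retinal pigment epithelium, grown in normal culture and taken in interphase, and neither was treated. The deposited list gives single-base positions without heights and does not tell the batches apart, so every value below describes 1 map, without replicates and with an unknown read depth. No test between conditions or samples could be made. The 95% intervals cover counting error only and treat positions as independent counts, which was not tested.

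Melanin is made in melanosomes, organelles that the pigment epithelium of the eye forms before birth and melanocytes form throughout life. Tyrosinase oxidises tyrosine, its relatives TYRP1 and DCT act on later intermediates of eumelanin, PMEL forms the fibrils on which pigment is laid down, and the transporters set the ions and pH of the organelle. MITF, a basic helix-loop-helix factor, switches on many of these genes through sites with the core CATGTG, which in the extended form found in pigment genes is called the M-box. RNA and pigment were not measured here, so neither the epithelial identity of the cells nor the activity of these genes can be checked from the list.

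The upstream sequences are shown first because they place these MITF-type sites beside the mapped nucleosomes. RefSeq promoters on GRCh38.p14, from 250 bases before to 50 after a start, were matched for 6 of the 8 genes. PMEL and SLC45A2 were not matched. The 250 bases before the start of the 3 enzymes and of SLC24A5 read as follows, 5′ to 3′ in the direction of transcription. Capitals mark CATGTG on either strand, so that CACATG is a match on the other strand.
TYR, chr11:89177625-89177874, plus strand: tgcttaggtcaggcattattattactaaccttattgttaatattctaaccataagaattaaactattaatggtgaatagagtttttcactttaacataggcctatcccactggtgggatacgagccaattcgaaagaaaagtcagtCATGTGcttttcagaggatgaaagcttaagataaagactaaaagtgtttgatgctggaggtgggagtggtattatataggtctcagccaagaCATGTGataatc
TYRP1, chr9:12693135-12693384, plus strand: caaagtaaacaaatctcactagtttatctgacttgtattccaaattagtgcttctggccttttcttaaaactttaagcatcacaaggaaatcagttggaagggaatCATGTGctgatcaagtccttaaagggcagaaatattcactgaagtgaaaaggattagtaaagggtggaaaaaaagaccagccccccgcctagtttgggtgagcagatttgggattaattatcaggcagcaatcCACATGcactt
DCT, chr13:94479683-94479932, minus strand: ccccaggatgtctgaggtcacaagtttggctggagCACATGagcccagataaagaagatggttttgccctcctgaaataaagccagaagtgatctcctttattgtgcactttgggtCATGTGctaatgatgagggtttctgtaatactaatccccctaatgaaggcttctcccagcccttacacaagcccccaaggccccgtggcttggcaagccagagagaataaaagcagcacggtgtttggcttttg
SLC24A5, chr15:48120740-48120989, plus strand: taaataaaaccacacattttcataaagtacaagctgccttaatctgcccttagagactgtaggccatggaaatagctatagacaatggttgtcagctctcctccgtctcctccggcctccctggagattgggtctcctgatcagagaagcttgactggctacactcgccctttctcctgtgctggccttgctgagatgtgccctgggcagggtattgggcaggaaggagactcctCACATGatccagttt

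CATGTG stood in 5 of the 6 matched promoters, those of TYR, TYRP1, DCT, OCA2 and SLC24A5, and in 11.1% of the 35116 promoters of the table. MLANA was the promoter without it. The longer form TCATGTG, searched on both strands after these promoters had been read and overlapping the first motif, stood in 4 of 6 and in 2.92% of all. CACGTG, the other E-box that MITF binds, was in 0 of 6 and in 7.26% of all. TATAAA was in 1 of 6, at +38 to +43 of TYRP1, and in 11.5% of all.

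Counting the start base as 0, the copies of CATGTG lay at -104 and -12 in TYR, at -144 and -11 in TYRP1, at -134 and -215 in DCT, at -153 in OCA2 and at -15 in SLC24A5, each given by its first base on the coding strand. A nucleosome covers 147 bp, so a position was taken to cover 73 bp on either side. In DCT the position at -8 is base 243 of the run above, and its footprint ended 48 bp short of the nearer copy. In SLC24A5 the position at -88 is base 163 of the run, and 1 base of the copy at -15 fell inside its footprint. No footprint reached the copies in TYR, TYRP1 and OCA2, whose nearest positions were 1305, 704 and 2019 bp away. None of these matches was tested as a binding site.

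The start sites themselves divided the genes by how near the closest positions came. An expected number was computed for each gene from the density in the 1 Mb around its middle, leaving out the gene with 10 kb on either side, so that genes in dense and sparse parts of the genome are each set against their own surroundings. The ratio of counted to expected positions within 2 kb of the start had a median of 1.66 over the 8 genes, against 0.698 over 19848 protein-coding genes with a usable window. Together the 8 start windows held 33 positions where 21.4 were expected. Part of this excess depended on the expectation. With each base given the genome-wide density of its GC content (the GC expectation), 28.2 were expected. The medians were then 1.19 and 0.662. Counting only bases that start a 32-mer found once in the genome, 24.1 were expected, and the median over the 8 genes was 1.36. No median over all genes was computed for that measure.

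**Figure D1:**
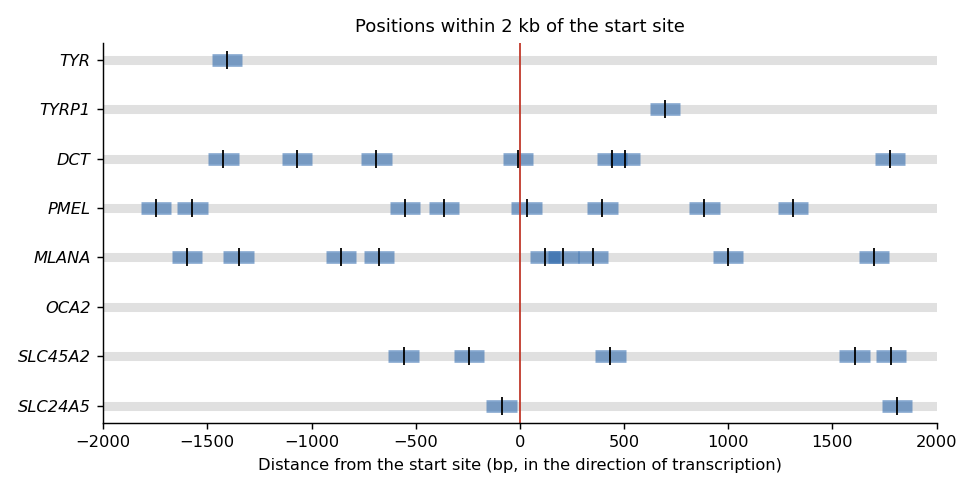
Positions within 2 kb of each start site (horizontal axis, bp in the direction of transcription; 1 row per gene). Black ticks are the deposited positions, blue bars 73 bp on either side of them, and the red line is the start; DCT, PMEL, MLANA and SLC45A2 have 5 to 9 positions each, and TYR, TYRP1, OCA2 and SLC24A5 have 0 to 2.

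Among the enzymes, TYR, which catalyses the rate-limiting first step, lies on chromosome 11 from 89177875 to 89295759 on the plus strand (ENSG00000077498.9, 118 kb, 5 exons). It had 1 position within 2 kb of its start, at -1407, and the next downstream was at 2125, which leaves 3532 bp around the start without a position. Its surroundings were sparse too, with 0.387 positions per kb and a median gap of 1347.5 bp. The ratio of 0.645 had an interval of 0.0163 to 3.62, so at this number of positions no difference from the surroundings was detectable. TYRP1, which acts on a later intermediate and stabilises tyrosinase, lies on chromosome 9 from 12685439 to 12710285 on the plus strand (ENSG00000107165.13, 24.8 kb, 8 exons). It also had 1 position in the window, at 696, where 3.79 were expected, a ratio of 0.264 (0.00667 to 1.47). The nearest position upstream was 2047 bp away, which leaves 2743 bp around the start without a position. Of all protein-coding genes, 24.9% had their first upstream position at least as far away, and 60.4% their first downstream one.

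DCT, dopachrome tautomerase, lies on chromosome 13 from 94436811 to 94479682 on the minus strand (ENSG00000080166.16, 42.9 kb, 8 exons). It had more positions near its start than TYR and TYRP1, but the intervals of the 3 ratios overlap. Its 7 positions within 2 kb stood at -1423, -1069, -689, -8, 442, 503 and 1776, against 3.99 expected, a ratio of 1.76 (0.704 to 3.63). The position at -8 put the start base itself inside a footprint. Of all protein-coding genes, 99.6% had their first upstream position at least as far away.

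PMEL, whose fragments build the melanosome fibrils, lies on chromosome 12 from 55954105 to 55973317 on the minus strand (ENSG00000185664.15, 19.2 kb, 11 exons in the MANE Select transcript). Its 8 positions within 2 kb were at -1746, -1572, -551, -363, 32, 396, 885 and 1310, a ratio of 2.13 (0.916 to 4.21). The position at 32 covered the start with its footprint and stood in exon 1. The start of CDK2, a cell cycle kinase gene on the other strand, lies at -739, so the windows of both genes overlap. The annotated 5′ end of PMEL lies 7275 bp further upstream, where the ratio was 0.798.

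MLANA, a membrane protein that PMEL needs for its processing, lies on chromosome 9 from 5890889 to 5910606 on the plus strand (ENSG00000120215.10, 19.7 kb, 5 exons). With 9 positions within 2 kb it had the most of the 8 genes, at -1597, -1350, -858, -676, 121, 209, 350, 998 and 1698, a ratio of 2.01 (0.917 to 3.83). No position lay in the 797 bp between -676 and 121. The first downstream nucleosome is shown because it is the nearest one to the start on that side and lies wholly in intron 1, from 48 to 194 bp after the start base. The capital marks the deposited position, and its GC content is 48.3%.
MLANA, chr9:5890937-5891083, plus strand: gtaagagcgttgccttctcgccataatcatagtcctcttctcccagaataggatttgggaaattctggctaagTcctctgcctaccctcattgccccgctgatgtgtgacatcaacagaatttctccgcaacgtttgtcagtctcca

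Of the transporters, SLC45A2, which helps to hold melanosomal pH, lies on chromosome 5 from 33944623 to 33984693 on the minus strand (ENSG00000164175.15, 40.1 kb, 7 exons). Its 5 positions within 2 kb stood at -558, -244, 434, 1606 and 1780, a ratio of 1.57 (0.509 to 3.69). SLC24A5, a potassium-dependent sodium/calcium exchanger, lies on chromosome 15 from 48120990 to 48142672 on the plus strand (ENSG00000188467.11, 21.7 kb, 9 exons). It had 2 positions there, at -88 and 1809, where 0.355 were expected, and the ratio of 5.64 ran from 0.672 to 21.0. With a local window of 2 Mb it was 1.15. OCA2, a chloride channel protein of the melanosome, lies on chromosome 15 from 27754875 to 28099315 on the minus strand (ENSG00000104044.16, 344 kb, 24 exons). It had 0 positions within 2 kb, where 0.252 were expected, and the nearest were at -2170 and 5078. The ratio of 0 had an interval of 0 to 15.3, so the empty start of OCA2 says little.

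Of the 5 genes with at least 2 expected positions in the start window, DCT, PMEL, MLANA and SLC45A2 had ratios over 1.5 and TYRP1 one under 0.667. Over all protein-coding genes with as many expected, 14.1% were over 1.5 and 47.5% under 0.667. When each base was given the genome-wide density of its GC content, scaled to the same 1 Mb, PMEL alone was still over 1.5, at 1.58, while DCT stood at 1.12 and MLANA at 1.38, and 11.2% of all genes were over. TYRP1 was still the one gene under 0.667, at 0.303, where 49.8% of all genes were. Each interval of these 5 ratios included 1, with and without that correction. GC content in the 4 kb start windows ran from 36.1% in TYRP1 to 55.2% in OCA2.

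From -200 to +50 bp, the stretch that active promoters often keep free, 5 of the 8 genes had no position, against 85.8% of all protein-coding genes. The exceptions, DCT, PMEL and SLC24A5, had 1 each. GC content of that stretch was lowest in TYR, at 38.6%, and highest in OCA2, at 75.3%. Over all genes the first upstream position was a median of 893 bp away (quartiles 338 and 2043 bp), and the first downstream one 1039 bp (286 and 2445.5 bp). DCT, SLC45A2 and SLC24A5 had a position nearer than the lower quartile upstream, and PMEL and MLANA downstream. TYRP1 and OCA2 were beyond the upper quartile upstream, and OCA2 also downstream.

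Over the gene bodies with 10 kb on either side, the 8 genes held 370 positions where 314 were expected. The median ratio was 1.16, against 0.906 over 19848 genes (quartiles 0.668 and 1.19). Positions per kb ran from 0.0720 in SLC24A5 to 1.38 in DCT. The density of the surroundings ran from 0.0629 per kb around OCA2 to 1.12 around MLANA. How much of the spread goes with the surroundings was not tested. The map of positions and exons shows the gene regions one by one.

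**Figure D2:**
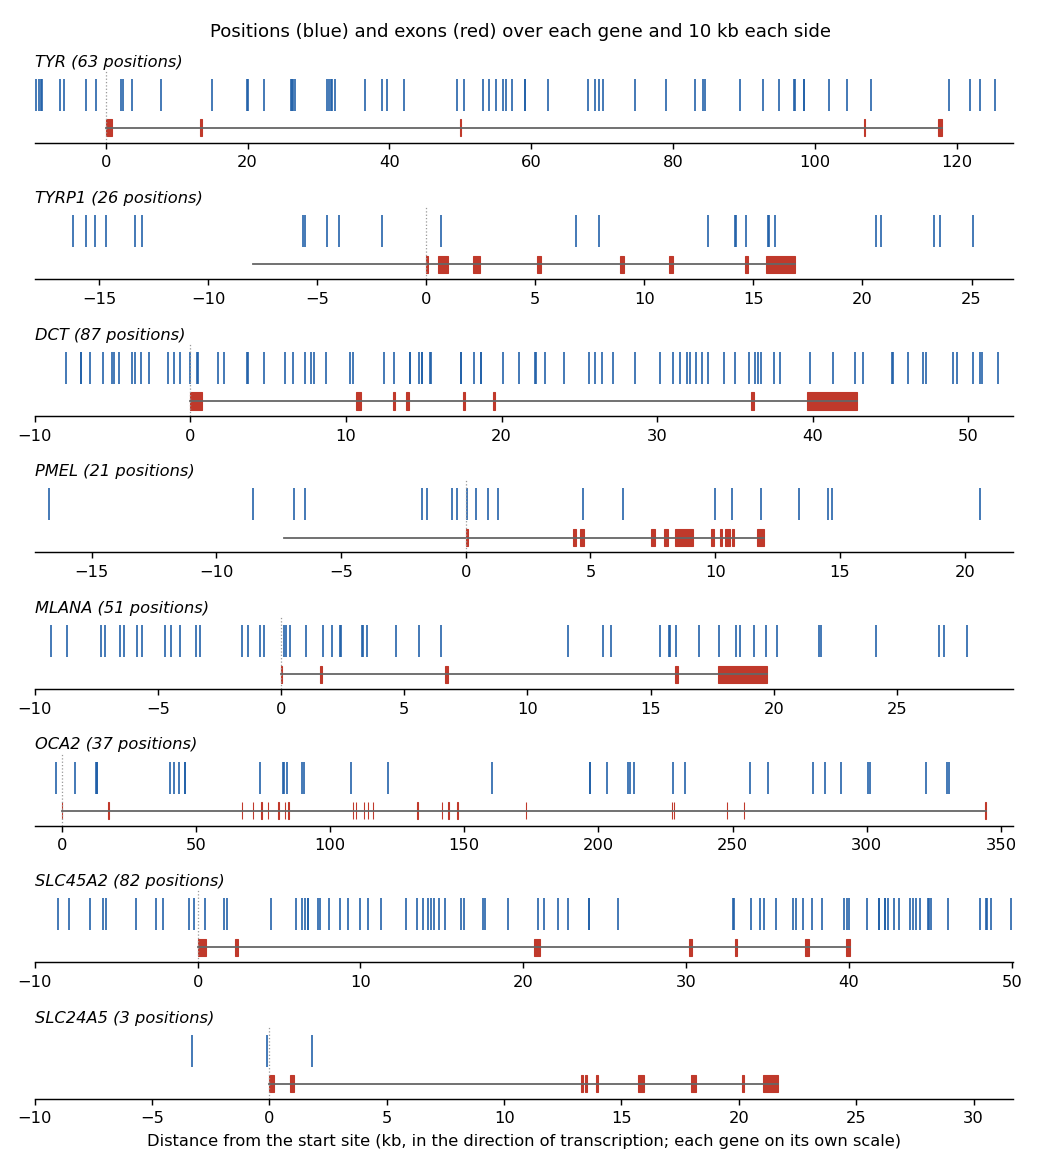
Each panel shows 1 gene with 10 kb on either side (horizontal axis, kb from the start site in the direction of transcription, a separate scale per gene); blue ticks are positions, red boxes exons of the MANE Select transcript, the grey line the annotated gene and the dotted line the start. Counts run from 3 positions at SLC24A5 to 87 at DCT, and no position lies inside an exon of TYR, OCA2 or SLC24A5.

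DCT was the highest of the enzyme genes, with 87 positions against 62.7 expected, a ratio of 1.39 (1.10 to 1.73). With the GC expectation it was 1.24, and the interval, 0.982 to 1.54, included 1. The 87 positions were evenly spread, with 6 to 11 in each of 10 equal pieces of the region. TYR held 63 against 53.4, a ratio of 1.18 (0.886 to 1.55), with 8 of them in the 10 kb before the gene and 4 in the 10 kb after it. TYRP1 held 26 against 42.5, a ratio of 0.612 (0.398 to 0.903), which was 0.887 with the GC expectation (0.576 to 1.31). Its region is AT-rich, at 33.9% GC.

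PMEL was the lowest of the 8, with 21 positions against 36.9, a ratio of 0.570 (0.351 to 0.876). The 3.92 kb around the start, 1 of 10 equal pieces of the region, held 7 of the 21. The part of the region that lies in RAB5B, a trafficking GTPase gene upstream, held 2 in 9405 bp, that in CDK2 held 3 in 6009 bp, and that in DGKA, a lipid kinase gene downstream, held 4 in 9923 bp. MLANA held 51 against 44.4, a ratio of 1.15 (0.849 to 1.52), and lies inside KIAA2026 on the other strand.

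SLC45A2 had the highest ratio, with 82 positions against 47.7, or 1.72 (1.35 to 2.16). The 10 kb after the gene held 21 of them, 2.10 per kb, and the 10 kb before it, which overlap AMACR, a gene of branched fatty acid oxidation, held 10. OCA2 had 37 against 22.9, a ratio of 1.61 (1.00 to 2.59), of which 36 were in the gene. That expectation rests on only 40 positions in the rest of the 1 Mb. SLC24A5 had 3 against 3.70, a ratio of 0.811 (0.164 to 2.45).

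Of the 7 genes with at least 5 expected positions, OCA2 and SLC45A2 were over 1.5, where 10.1% of all such genes were, and TYRP1 and PMEL were under 0.667, where 24.7% were. With the GC expectation OCA2 alone was over, at 1.57, against 5.91% of genes, and PMEL alone under, at 0.509, against 21.2%. Sequence uniqueness moved with the excess in SLC45A2 and OCA2, and its part in it was not tested. Of the bases around SLC45A2, 67.0% start a 32-mer found once in hg38, against 93.2% in the gene region, and around OCA2 the shares were 69.0% and 91.0%. Counting only such bases, the ratio was 1.23 for SLC45A2 (0.970 to 1.55), 1.22 for OCA2 (0.760 to 1.96) and 0.998 for TYR (0.750 to 1.31), and none of the 7 genes was over 1.5. TYRP1, at 0.575 (0.374 to 0.849), and PMEL, at 0.557 (0.343 to 0.857), stayed under 0.667, and DCT stood at 1.37 (1.09 to 1.71). This measure was added after the list had been examined. No shares of all genes over 1.5 or under 0.667 were computed with it. Whether these counts are unusual therefore cannot be told.

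**Figure D3:**
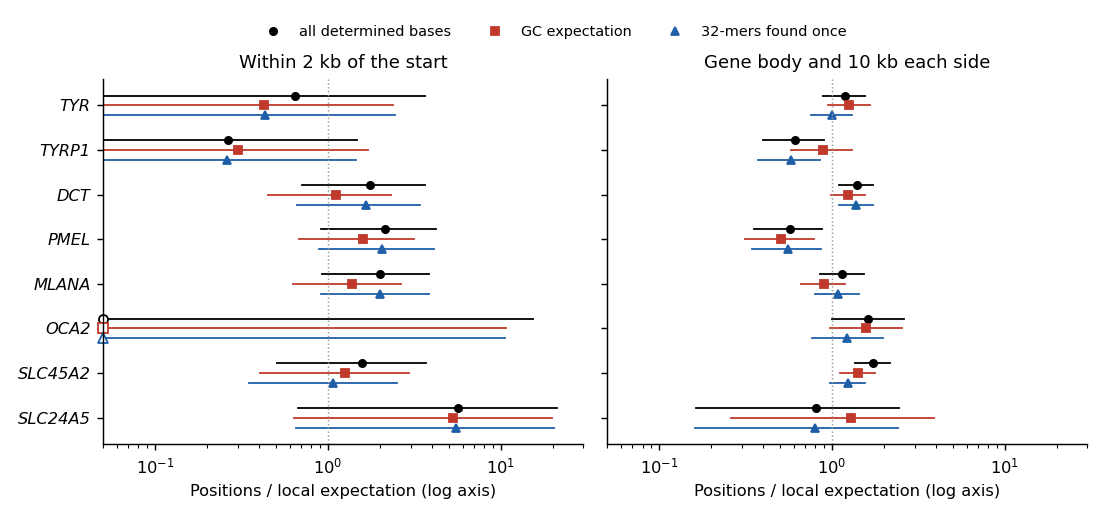
Ratio of counted to expected positions (horizontal log axis) for each gene, within 2 kb of the start (left) and over the body with 10 kb each side (right); bars are 95% exact intervals for counting error, cut at the axis ends, and open symbols at the left edge stand for a count of 0. Black uses all determined bases, red the GC expectation and blue the bases that start a 32-mer found once; for the body of SLC45A2 these give 1.72, 1.41 and 1.23.

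Set beside the 200 protein-coding genes nearest in length, the order was the same. SLC45A2 and OCA2 each had a higher ratio than 96.5% of their 200 comparators, and DCT than 92.5%. TYR stood above 76.5%, MLANA above 69.5% and SLC24A5 above 44.5%. TYRP1 stood above 16.5% and PMEL above 10.5%. By density alone, without the local expectation, OCA2 stood above 1%, SLC24A5 above 0.5% and TYR above 5%. OCA2 and SLC24A5 lie in sparse parts of chromosome 15.

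The median gap between neighbouring positions was 500 bp in SLC45A2, 514.5 bp in MLANA and 544.5 bp in DCT, close to the medians of their surroundings, 449, 545.5 and 604.5 bp. It was 994 bp in TYRP1 and 1081.5 bp in PMEL, against 666 and 593 bp around them. TYR had 1429 bp against 1347.5 bp, and OCA2 6277 bp against 5268.5 bp. Footprints of 147 bp covered 18.7% of the SLC45A2 region, 18.5% of DCT, 17.9% of MLANA, 8.02% of PMEL, 8.01% of TYRP1, 6.35% of TYR, 1.42% of OCA2 and 1.06% of SLC24A5.

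DCT had the shortest longest gap among the 7 genes with over 3 positions, 2027 bp. In SLC45A2 the longest was 7060 bp, from 25.8 to 32.9 kb after the start (chr5:33951811-33958871), a stretch that holds exon 4. Of its bases, 75.4% start a 32-mer found once, against 93.2% for the whole region. In MLANA it was 5145 bp and holds exon 3, with 92.5% of such bases. TYR had its longest gap, 10984 bp, at the 3′ end around exon 5, where 61.9% of the bases were of that kind. In OCA2 it was 38818 bp, from 121.4 to 160.2 kb after the start, and holds exons 15 to 18, with 89.3%. The longest gaps of TYRP1, 7406 bp, and PMEL, 8190 bp, lay upstream of the start, and 2 gaps as long were found around each.

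Neighbours 150 to 220 bp apart, the spacing of nucleosomes side by side, made up 14 of 81 gaps in SLC45A2, or 17.3% (95% Wilson interval 10.6 to 26.9%), against 10.1% around it. MLANA had 8 of 50, or 16.0% (8.34 to 28.5%), against 11.3%, and PMEL 3 of 20, against 14.4%. DCT, with a similar density, had 7 of 86, or 8.14%, against 12.0%. TYRP1 had 0 of 25, which allows up to 13.3% by the same interval, against 10.9%. The interval of SLC45A2 began just above its local share, and those of MLANA and TYRP1 included theirs. Neighbours under 60 bp apart, whose footprints overlap so that both cannot be whole nucleosomes on the same DNA molecule, numbered 9 in DCT, or 10.5% of its gaps against 9.66% around it, and 6 in SLC45A2, or 7.41% against 14.5%. TYR had 4, or 6.45% against 8.13%, and PMEL had 0, against 7.55%. TYRP1, MLANA and OCA2 had 2 each, or 8%, 4% and 5.56% of their gaps, against 8.64%, 8.49% and 10.5% around them, and SLC24A5 had 0.

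Exons were compared with the introns of the same transcript. The 77 exons of the 8 genes held 25 positions, and 15 exons, or 19.5% (95% Wilson interval 12.2 to 29.7%), held at least 1. Over 209590 exons of protein-coding genes the share was 19.9%. TYR, OCA2 and SLC24A5, with 38 exons between them, had 0 positions, but only 1.16 were expected there. Against the local density 14.9 positions were expected in the exons of all 8 genes, and the median ratio was 1.50, against 0.826 over 19848 genes. With the GC expectation these medians were 1.16 and 0.853. The other 5 genes held all 25. Of the 25, 17, or 68%, were in coding sequence, which makes up 59.8% of the exon bases of the 8 genes.

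TYRP1 had the widest difference. Its exons carried 5 positions, 1.73 per kb, and its introns 5, 0.357 per kb, a ratio of 4.84 (95% exact interval 1.11 to 21.0). They stood in exon 2 at base 170, in exon 7 at base 45 and in the last exon, 8, at bases 61, 118 and 412, the first 4 of them in coding sequence. The footprints of those at bases 61 and 118 overlap, and the interval counts both. With positions under 100 bp apart merged, 4 remained in the exons, and the exon to intron ratio was not computed from them. Exon GC was 40.3% and intron GC 33.2%. PMEL had 4 in exons, 1.88 per kb, in exons 1, 3, 10 and 11, and 5 in introns, 0.510 per kb, a ratio of 3.69 (0.733 to 17.2). There 100% of exon bases and 68.2% of intron bases start a 32-mer found once.

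MLANA had 6 in exons, 2.58 per kb, against 1.21 in introns, a ratio of 2.13 (0.705 to 5.47), and 5 of the 6 lay in its last exon, 1967 bp long. SLC45A2 had 4, 2.31 per kb, against 1.23, a ratio of 1.89 (0.494 to 5.16), with 2 of them in the 250 bp of exon 7. In DCT the exons were no denser than the introns: 6 positions, 1.18 per kb, against 53, 1.40 per kb, a ratio of 0.843 (0.296 to 1.96). Of the 6, 2 lay in exon 1, at bases 443 and 504, 1 in exon 3 and 3 in the noncoding part of the last exon. Among the 3 genes with at least 2 exon positions expected from the surrounding 1 Mb, TYRP1, DCT and MLANA, the first and the last had an exon density over 1.5 times that of the introns, and 30.6% of all such genes did. From the intron density instead, 1.03 would be expected in the exons of TYRP1 and 2.12 in those of SLC45A2, so the genes that enter this count depend on the expectation.

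**Figure D4:**
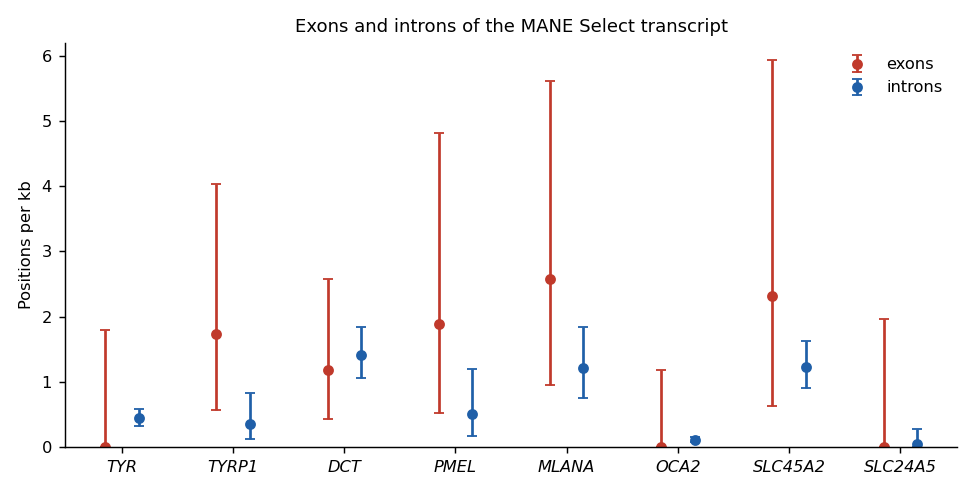
Positions per kb (vertical axis) in exons (red) and introns (blue) of the MANE Select transcript of each gene; bars are 95% exact Poisson intervals. The intervals overlap in all 8 genes, and the red points of TYR, OCA2 and SLC24A5 are at 0.

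TYR had 51 positions in 116 kb of introns and none in its 2062 bp of exons. At the density of its introns 0.908 would lie in the exons, so the empty exons were within counting error. The interval of the exon density ran from 0 to 1.79 per kb. Part of this gene has a copy. The pseudogene TYRL, on chromosome 11 from 49405091 to 49415789, shares 47.8% of the 32-mers of exon 4 and 20.9% of those of exon 5, and 52.2% and 42.9% of the bases of these exons start a 32-mer found once. Reads from them are uncertain. Exons 1 to 3, where 100% of the bases are of that kind, had no position either. TYRL itself held 4 positions in 10.7 kb.

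OCA2 and SLC24A5 both lie in sparse parts of chromosome 15 and were read only against them. Counts in windows of 50 kb ran from 2 to 9 over the OCA2 gene body, and from 0 to 9 in the 1000 kb before its start. At SLC24A5 the 3 positions stood at -3290, -88 and 1809. Beyond them the list was empty for 42651 bp on the upstream side and for 67587 bp on the downstream side, a stretch that takes in exons 3 to 9 and the gene MYEF2 on the other strand. Density changed steeply 500 kb downstream of its start. The 10 windows before that point held 36 positions in 500 kb, 0.0720 per kb, with 0 to 14 per window, and the 10 after it held 719, 1.44 per kb, with 34 to 92. With 2 Mb for the local window the ratio over the body was 0.166, and with the whole chromosome 0.0583. At OCA2 the whole chromosome gave 0.0822.

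**Figure D5:**
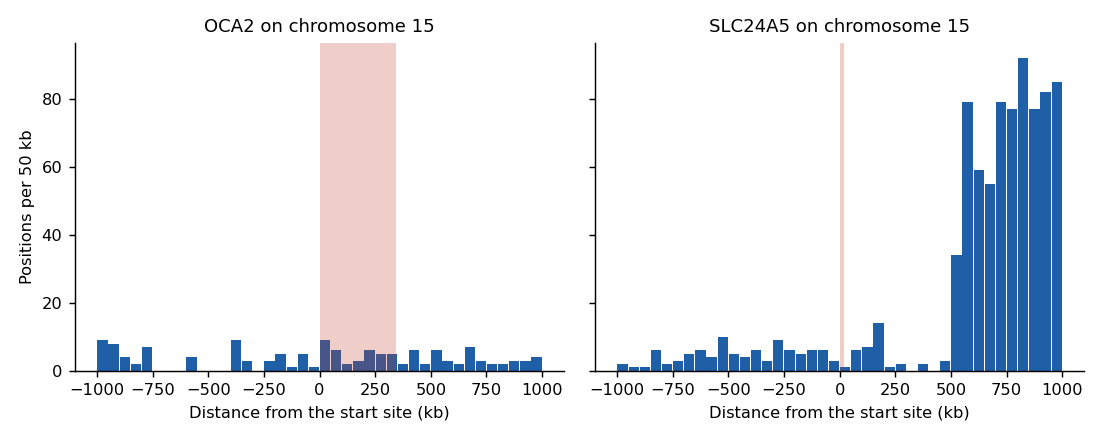
Positions per 50 kb (vertical axis) by distance from the start site (horizontal axis, kb in the direction of transcription) for OCA2 (left) and SLC24A5 (right); the shaded band is the gene body. Windows at OCA2 hold at most 9 positions, and those at SLC24A5 at most 14 up to 500 kb and at least 34 beyond.

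Other genes of pigmentation were taken from a list of 46, of which 44 had a protein-coding entry, a usable local window and at least 5 expected positions. TYRL is a pseudogene, and LRMDA is longer than the local window. Over the body with 10 kb each side, 5 of the 44 had a ratio over 1.5 and 5 under 0.667, and their median was 0.904, against 0.906 over all genes. Over all genes 10.1% were over and 24.7% under. Regulators and signals had 2 of 12 over and 0 under. Organelle assembly had 1 of 19 over and 5 under, transport along the cell 1 of 5 over, and other melanosome proteins 1 of 8 over.

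The highest of the list were CITED1, a transcriptional co-regulator, at 2.45 (1.73 to 3.37), MYO7A, the myosin that carries melanosomes in the pigment epithelium, at 1.87, and POMC, the precursor of melanocortins, at 1.75. The lowest were RAB32, a GTPase of melanosome cargo transport, AP3D1, a subunit of the AP-3 adaptor, and BLOC1S2, a subunit of BLOC-1. MYO7A had 189 positions where 101 were expected, and its ratio was 1.26 with the GC expectation. RAB32 had 11 where 20.9 were expected, a ratio of 0.526. MITF itself had 167 where 238 were expected, a ratio of 0.703, and no position from -200 to +50 bp of its start. Of the 45 genes with a start, 39 had none there, close to the share of 85.8% over all protein-coding genes.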

How the data were processed

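MNase-seq of ARPE-19 cells in interphase was deposited as 1 list of 1-bp positions for 2 samples. The submitters' processing notes name Bowtie2 and hg38. The caller, its threshold, the fragment filter and whether batches were pooled are not given in the sources used here, and read depth is unknown. The deposited values are genome coordinates, neither counts nor scores. Of 2634347 entries, 2632955 distinct positions on chromosomes 1 to 22 and X were used, converted to 1-based coordinates. Sequence names and lengths were checked against hg38. Gene models were GENCODE 44, with MANE Select starts and exons. The members and the wider list were chosen with earlier results of these data known. Genes named from the wider list are the 3 highest and 3 lowest ratios, with MITF added after its value was seen. Ratios set counts against the density of determined bases in the surrounding 1 Mb, and calls used ratios over 1.5 or under 0.667. Intervals for ratios are exact 95% intervals conditional on the sum of both counts. The expectation by unique 32-mers was added after the list was seen. Calculations used Python 3.11.15, numpy 2.4.6 and scipy 1.17.1. Simulated data were used to check only the ratio over gene bodies and the Poisson interval of a count. Start and exon ratios, the intervals for ratios and the GC and unique expectations were not checked in that way. Alternatives were other windows, starts, merging, GC and uniqueness.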

Additional observations from a re-analysis of the deposited data

How the results depend on the processing

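Of 293 alternative values for 61 results, 275 stayed within the counting interval, the spread over the genes or the limit used for counts, and 18 did not. This tally says little about stability, because many of these limits were wide and a count that stayed 0 could not leave its interval. The start ratio of SLC24A5 fell from 5.64 to 1.15, and the start median from 1.66 to 0.839, and both still counted as within the limits. Of 234 alternative ratios and medians of ratios, 11 fell on the other side of 1 from the reported value, 5 of them against the whole chromosome. The window around the start mattered for single genes. With 1 kb each side TYR had a ratio of 0, and from the annotated 5′ end TYRP1 had 0 and PMEL 0.798. Against the whole chromosome the start of SLC24A5 had 0.405, and the bodies had 0.520 in TYR, 0.0822 in OCA2 and 0.0583 in SLC24A5, with a median of 0.591, while the median at the start was 0.839. With a local window of 500 kb TYR had 1.58 over the body, and with 50 kb each side 0.949. By unique 32-mers SLC45A2 had 1.23 and TYR 0.998, and with the GC expectation the bodies of MLANA and SLC24A5 had 0.898 and 1.29. With exons of all transcripts SLC24A5 had 2.37 in place of 0. In the wider list, with the GC expectation, 3 of 44 genes were over 1.5 and 4 under 0.667. Over all genes 5.91% were over and 21.2% under. At a fold of 2 there was 1 over and 0 under, and no share over all genes was computed at that fold. The causes were not tested. No paired analysis was possible because the list carries no batch, and for the same reason no replicate could be left out. The list has no heights, so a missing position cannot be told apart from one under the threshold.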
